A study of Mus musculus with 36 samples.

Results

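The miRNA cluster of miR-188, miR-362, miR-500, miR-501 and miR-532 lies inside Clcn5, the gene of a chloride/proton exchanger of endosomes, and its 5 hairpins gave 10 of the 469 mature miRNAs in the data. The members are the 5p and 3p arms of these hairpins, namely mmu-miR-532-5p, mmu-miR-532-3p, mmu-miR-188-5p, mmu-miR-188-3p, mmu-miR-362-5p, mmu-miR-362-3p, mmu-miR-501-5p, mmu-miR-501-3p, mmu-miR-500-5p and mmu-miR-500-3p. They were chosen by the measured line difference (Ikaros minus control) at 24 h and its excess over that at 0 h, with the other arms and neighbouring hairpins added by position. The 5 largest positive line differences at 24 h among all 469 miRNAs all belonged to members, and the lowest member ranked 18. Values at 0 h and 24 h are therefore given as a description without a test, and the tests compare groups of 2, 6, 12 and 18 h. All 36 samples entered the fit and set its estimate of the spread, and a fit of the 24 samples of 2 h to 18 h alone is given as an alternative.

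Small RNA was sequenced in the mouse pre-B cell line B3, in which entry of Ikaros, a transcription factor of lymphocytes, into the nucleus starts the step to a later pre-B stage. In the Ikaros line, B3 cells carried a retroviral (MSCV) vector for haemagglutinin-tagged wild type Ikaros fused to the hormone-binding domain ERt2 of the estrogen receptor, with IRES-GFP, whereas the vector of the control line encoded ERt2 and IRES-GFP without Ikaros. Each line was sorted for GFP after infection and expanded, so that all samples of a line derive from 1 transduced population. Each line was sampled at 0, 2, 6, 12, 18 and 24 h with 3 samples per time, 36 in all. The drug, 4-hydroxy-tamoxifen, is labelled at 0.5 uM for every sample, although the study's methods describe 0 h as untreated, and it was given to both lines. The culture batches at 0 h were not those of 2 h to 24 h. The sequencing batch of each sample is not in the labels and was read from the design figure of the study. By that figure, control samples of 2 h to 18 h were sequenced in a second batch. Ikaros samples and the remaining controls were sequenced in the first, with some samples in both. The line and the sequencing batch at 2 h to 18 h can thus be told apart only as far as the authors' correction allows. Samples sequenced in both batches include some of the Ikaros line, so the change from 2 h to 18 h within that line also rests in part on this correction. The protein Ikaros is not measured by these data, so its induction could not be checked here.

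A miRNA gene is transcribed as a hairpin that Drosha and Dicer cut into a duplex of a 5p and a 3p strand. Either strand can be loaded into an Argonaute protein, where the seed, bases 2 to 8, guides pairing with target mRNAs. Hairpins inside an intron are often cut from the transcript of their host gene, although they can also have promoters of their own. In this cluster, miR-188 is known from studies of bone marrow stromal cells and miR-362-5p from studies of Cyld, a deubiquitinase that restrains NF-kB.

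All 5 hairpins were placed on the minus strand of chromosome X in intron 3 of the 14 introns of transcript Clcn5-202 (GENCODE vM21, GRCm38), and no transcript of Clcn5 had an exon there. Clcn5 (ENSMUSG00000004317.14) spans chrX:7153810-7319358, 165.5 kb. In the direction of transcription the order was Mir532 (chrX:7248402-7248497), Mir188 (chrX:7247989-7248056), Mir362 (chrX:7241982-7242046), Mir501 (chrX:7241243-7241351) and Mir500 (chrX:7237683-7237774). Mir532 and Mir188 were 345 bases apart and Mir362 and Mir501 630 bases, whereas 5942 bases lay between these pairs and 3468 bases before Mir500. No other miRNA hairpin was annotated in Clcn5 or within 50 kb of the cluster.

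**Figure D1:**
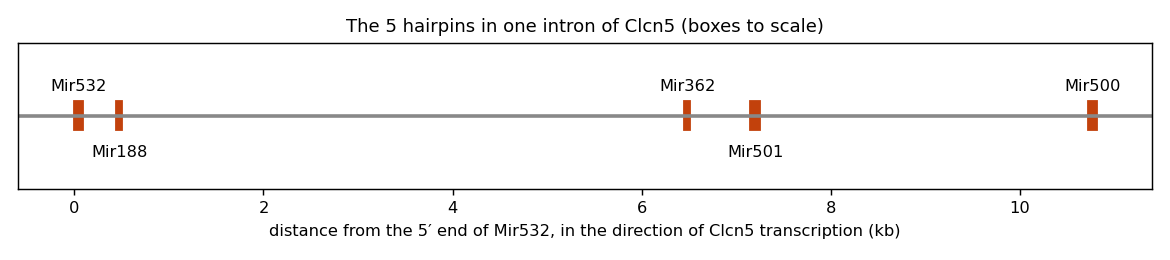
Positions of the 5 hairpins along 10.8 kb of the Clcn5 intron, drawn to scale against the distance in kb from the 5′ end of Mir532. Mir532 and Mir188 form one pair, Mir362 and Mir501 another, and Mir500 stands at the far end.

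RefSeq (GRCm38.p6) gave mature sequences for 9 of the 10 members. They are shown from 5′ to 3′ because the arms fall into related groups, with the seed in capitals.
mmu-miR-532-3p: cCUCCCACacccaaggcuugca
mmu-miR-188-5p: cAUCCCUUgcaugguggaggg
mmu-miR-188-3p: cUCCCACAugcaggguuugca
mmu-miR-362-5p: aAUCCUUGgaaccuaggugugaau
mmu-miR-362-3p: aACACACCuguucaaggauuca
mmu-miR-501-5p: aAUCCUUUgucccugggugaaa
mmu-miR-501-3p: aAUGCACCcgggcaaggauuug
mmu-miR-500-5p: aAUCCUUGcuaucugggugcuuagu
mmu-miR-500-3p: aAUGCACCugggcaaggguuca
These 9 arms carried 7 different seeds. The seed AUCCUUG was shared by mmu-miR-362-5p and mmu-miR-500-5p, and AUGCACC by mmu-miR-501-3p and mmu-miR-500-3p. None of the other miRNAs of the table with a sequence carried any of the 7 seeds, among 391 with a sequence in all. Counted from the 5′ end, mmu-miR-501-3p and mmu-miR-500-3p differed at 4 of 22 bases (C9U, A18G, U21C and G22A), and mmu-miR-362-3p and mmu-miR-500-3p at 5 of 22 (C3U, A4G, U11G, U12G and A18G). How the alignment divided reads between such close sequences is not known from the table, which leaves the separate levels of these 3 arms uncertain. The next closest pair, mmu-miR-362-5p and mmu-miR-501-5p, differed at 6 of 22 bases, and mmu-miR-532-5p had no sequence to compare.

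The deposited values are normalised log2 read values, which ranged from 0.09 to 19.3 over all miRNAs and samples, with sample medians between 3.70 and 4.15. The depth of each sample cannot be read from them, so precision rests on the 3 replicates. All 7 lymphoid and haematopoietic marker miRNAs were present, with values between 3.07 for mmu-miR-150-5p and 18.71 for mmu-miR-181a-5p. Of 12 markers of other cells, 4 were in the table (mmu-miR-223-3p, mmu-miR-9-5p, mmu-miR-126a-3p and mmu-miR-200c-3p). On the linear scale these 4 summed to between 0.623% and 0.874% of the total in control samples and between 0.52% and 0.789% in Ikaros samples, and their part in the results was not tested. The most abundant of them was mmu-miR-9-5p, listed as a neural marker, with values between 12.69 and 13.87, while the others reached at most 7.62. By mean level it ranked 17 of 469 miRNAs. It stood below mmu-miR-181a-5p (2), mmu-miR-16-5p (4) and mmu-miR-142-5p (9) and above the remaining lymphoid markers.

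Both lines expressed all 10 arms, at levels that differed widely among them. Over the 18 control samples mmu-miR-532-5p had the highest mean (9.68 ± 0.24, SD, n = 18), followed by mmu-miR-501-3p (8.79 ± 0.35), while mmu-miR-501-5p (2.69 ± 0.45) and mmu-miR-500-5p (2.33 ± 0.54) were lowest. In the Ikaros line the order of the 10 means was the same, from 12.23 ± 0.66 for mmu-miR-532-5p and 10.70 ± 0.53 for mmu-miR-501-3p to 4.88 ± 0.66 for mmu-miR-501-5p and 4.23 ± 0.82 for mmu-miR-500-5p. Only the gaps below mmu-miR-532-5p and mmu-miR-501-3p, and in the control line that between mmu-miR-362-3p and mmu-miR-188-3p, exceeded the SDs of the neighbours, and the remaining neighbours in the order overlapped within 1 SD. Levels are those of normalised read values, not scaled by the lengths of the arms.

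Because the scale is logarithmic, 2 arms made up most of the cluster's signal. On the linear scale mmu-miR-532-5p and mmu-miR-501-3p together held between 76.0% and 88.9% of the sum of the 10 arms in control samples and between 79.2% and 86.2% in Ikaros samples. The 10 arms held between 0.092% and 0.14% of the total of all miRNAs in control samples. In Ikaros samples they held between 0.261% and 1.09%, a range that lay wholly above that of the control line. Both ranges include 0 h and 24 h, which entered the choice of the members. Their limits came from samples of 2, 12 and 18 h, which share culture batches with 24 h. The separation is therefore not independent of the choice. From bulk pellets, more cells with the miRNAs and more molecules per cell cannot be told apart.

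At every time the 3 Ikaros samples lay above the 3 control samples for all 10 members. Because 0 h and 24 h entered the choice of the members, the separation at these times is a description only. The share of all 469 miRNAs with Ikaros samples wholly above control samples was 12.6%, 16.8%, 16.8%, 15.8%, 22.2% and 23.9% at 0, 2, 6, 12, 18 and 24 h. The plot of the values by sample shows the distance between the lines in each of the 10 arms.

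**Figure D2:**
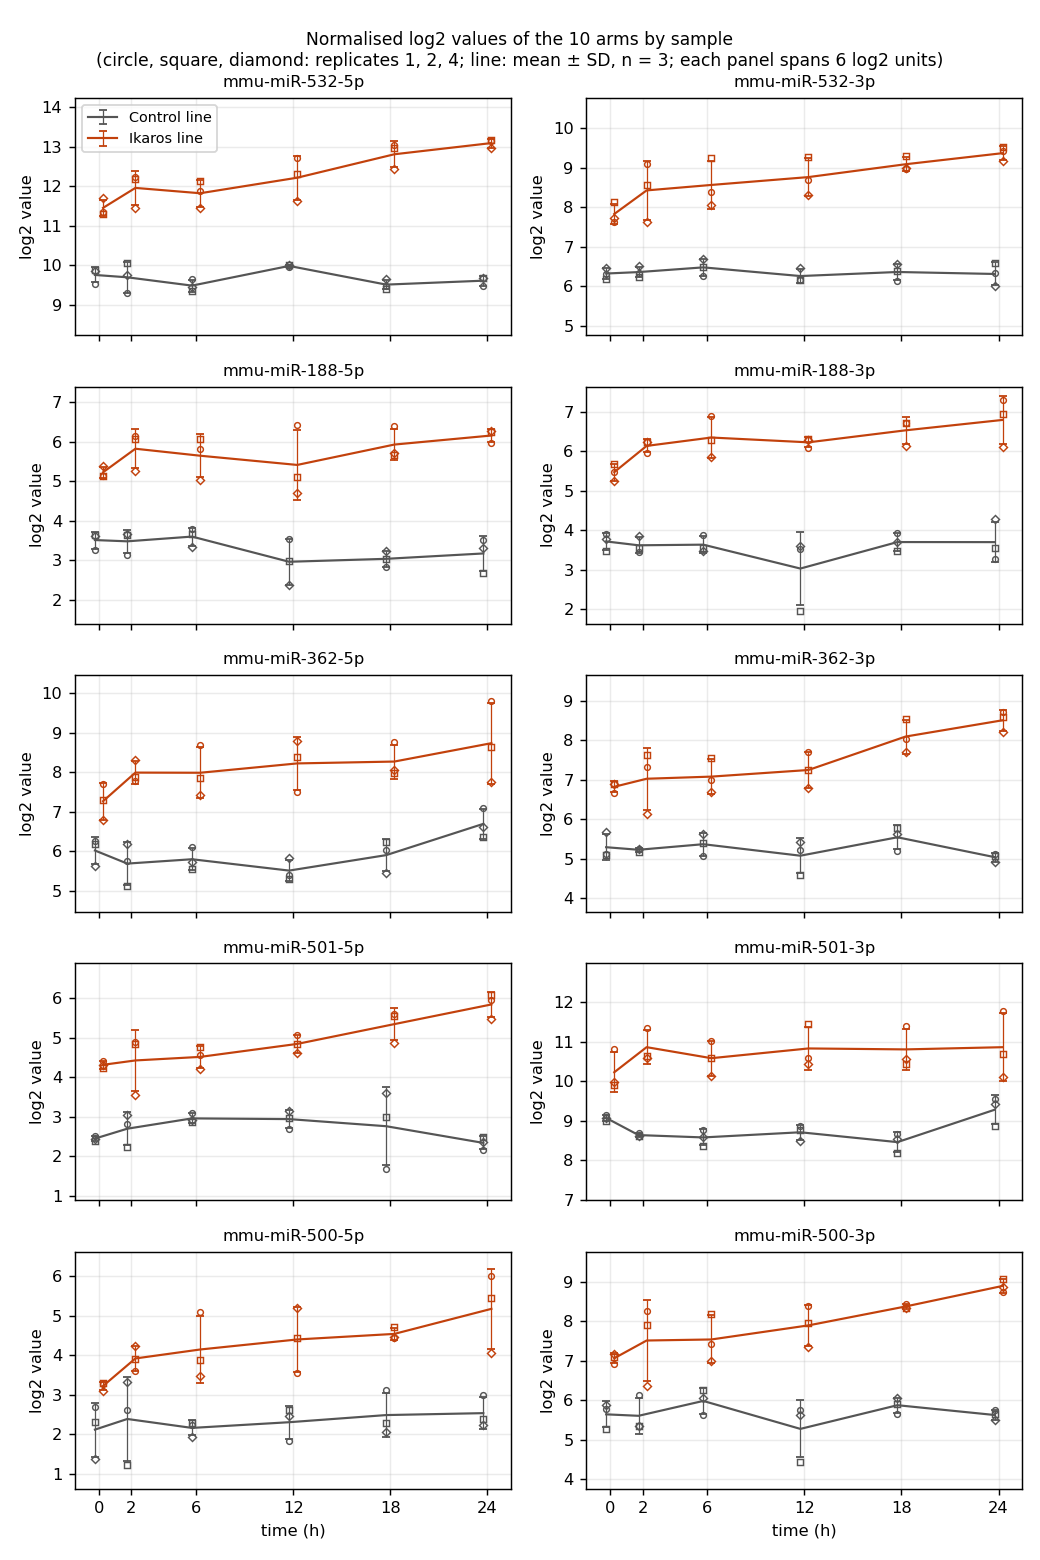
Normalised log2 value of each arm (y axis, each panel spanning 6 log2 units) against time in h (x axis), for the control line in grey and the Ikaros line in orange. Symbols are single samples, lines join means with SD (n = 3). No Ikaros sample overlaps a control sample of the same time in any panel.

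At 0 h, a time that entered the choice of the members, the line differences lay between 1.10 for mmu-miR-500-5p and 1.87 for mmu-miR-501-5p on the log2 scale, or between 2.15-fold and 3.65-fold, with a median of 1.52 against -0.03 over all miRNAs. The values of mmu-miR-532-5p at 0 h were 9.54, 9.88 and 9.86 in the control line and 11.36, 11.31 and 11.70 in the Ikaros line. The lines were thus separated at the time described as untreated.

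Between 2 h and 18 h, in samples outside the choice, all 10 members were higher in the Ikaros line at each of the 4 times (limma, adjusted p under 0.05). These samples share their culture batches and transduced populations with those of 24 h. The line differences at 2 h to 18 h are therefore not independent of the choice. The share of all 469 miRNAs called higher in the Ikaros line was 7.25%, 7.89%, 12.6% and 13.0% at 2, 6, 12 and 18 h. All 10 members were among the 20 largest positive line differences at each of these times. In the same order the median difference over the members was 2.15, 2.03, 2.34 and 2.57, against 0.04, -0.01, 0.08 and -0.01 over all miRNAs. With 2 h to 18 h samples alone in the fit, 10 of 10 members were again called at each time. Fewer members passed when replicate 2 or replicate 1 was left out, whereas 10 of 10 passed at each time without replicate 4. Every difference stayed positive. Without replicate 2, members past the threshold numbered 6 (2 h), 7 (6 h), 9 (12 h) and 9 (18 h) of 10, and without replicate 1 they numbered 8 at 6 h and 10 at the other times. The 4 that missed it at 2 h without replicate 2 had differences of 2.08 (mmu-miR-362-5p), 1.57 (mmu-miR-500-3p), 1.29 (mmu-miR-501-5p) and 0.96 (mmu-miR-500-5p). With the Ikaros 2 h sample of replicate 4 left out instead, a setting chosen after seeing the data, 9 of 10 passed at 2 h and mmu-miR-500-5p did not (1.37, limma, adjusted p = 0.119).

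The direction of calls over all miRNAs depended on the scaling, while that of the members did not. Higher and lower calls numbered 34 and 19 (2 h), 37 and 34 (6 h), 59 and 43 (12 h) and 61 and 79 (18 h). Subtracting sample medians raised the median difference of all miRNAs by 0.16 at 6 h and 0.17 at 18 h, and changed these counts to 46 and 20 (6 h) and 86 and 56 (18 h). After quantile normalization they were 24 and 27 (2 h) and 41 and 50 (12 h). Under both scalings 10 of 10 members were called higher at each of the 4 times, with medians between 1.97 and 2.65 above that of all miRNAs.

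**Figure D3:**
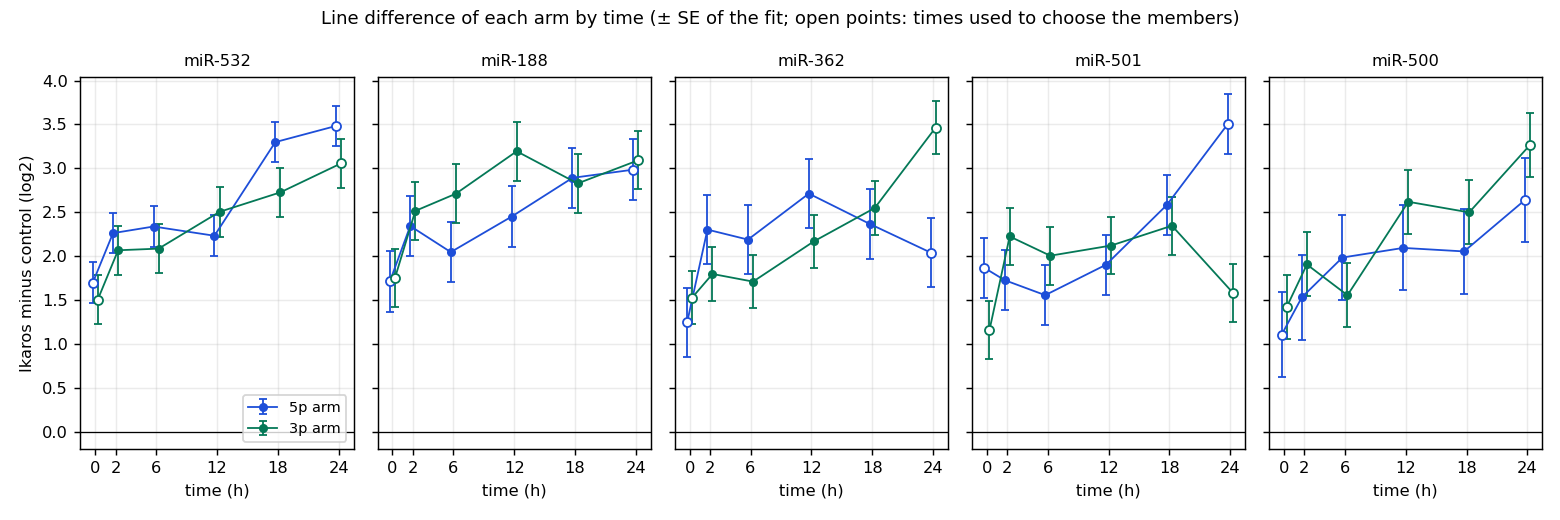
Ikaros minus control difference in log2 (y axis) against time in h (x axis), 1 panel per hairpin, with the 5p arm in blue and the 3p arm in green. Bars are the SE of the fit, and open points mark 0 h and 24 h, which chose the members. All differences lie above 1, and mmu-miR-501-3p and mmu-miR-362-5p stand lower at 24 h than at 18 h.

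Mir532, the first hairpin of the cluster, gave the most abundant member. At 2 h the values of mmu-miR-532-5p were 9.29, 10.06 and 9.75 in the control line and 12.23, 12.19 and 11.47 in the Ikaros line, and at 18 h they were 9.49, 9.41 and 9.65 against 13.04, 12.97 and 12.44. No sample of either line came near the other. Its line difference was 2.26 ± 0.23 (SE, limma, adjusted p = 3.8e-08) at 2 h and 3.30 ± 0.23 (adjusted p = 1.74e-12, 9.84-fold) at 18 h, the largest of the members at that time. The line difference of mmu-miR-532-3p was 2.07 ± 0.28 at 2 h (limma, adjusted p = 3.38e-06) and 2.73 ± 0.28 at 18 h (adjusted p = 1.18e-08).

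Mir188 gave arms of lower level. The values of mmu-miR-188-3p at 2 h were 3.45, 3.55 and 3.85 in the control line and 5.95, 6.23 and 6.23 in the Ikaros line, a gap wider than the spread of either group. Its difference of 2.52 ± 0.33 (limma, adjusted p = 2.48e-06) was the largest of the members at 2 h, and it was 3.19 ± 0.33 at 12 h. At 12 h control replicate 2 was at 1.97, the lowest value of this arm in any sample, against 3.52 and 3.61 in the other two. For mmu-miR-188-5p the differences ran from 2.05 ± 0.34 at 6 h to 2.89 ± 0.34 at 18 h.

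The arms of Mir362 had similar levels to each other. At 18 h mmu-miR-362-3p was at 5.21, 5.80 and 5.64 in the control line and at 8.05, 8.55 and 7.70 in the Ikaros line, groups that did not overlap. Its difference was 1.80 ± 0.30 at 2 h and 2.55 ± 0.30 at 18 h (limma, adjusted p = 1.42e-07). For mmu-miR-362-5p the difference was 2.30 ± 0.40 at 2 h and 2.37 ± 0.40 at 18 h (limma, adjusted p = 2.94e-05).

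Mir501 had the widest gap between arms. The abundant mmu-miR-501-3p differed between the lines by 2.23 ± 0.33 at 2 h and 2.35 ± 0.33 at 18 h (limma, adjusted p = 2e-06), and the scarce mmu-miR-501-5p by 1.73 ± 0.34 and 2.58 ± 0.34 (adjusted p = 8.2e-07). In the last of these, control replicate 1 was at 1.68 against 3.00 and 3.60, whereas the Ikaros samples were at 5.60, 5.55 and 4.88.

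Mir500 included the lowest and most variable member. The values of mmu-miR-500-5p at 2 h were 2.61, 1.22 and 3.32 in the control line and 3.61, 3.89 and 4.24 in the Ikaros line, so that the highest control lay just below the lowest Ikaros sample. Its line difference of 1.53 ± 0.48 (limma, adjusted p = 0.0389) was the smallest of the members at 2 h, and its SD within groups, 0.63, was the largest, against a median of 0.36 over all miRNAs. At 18 h the difference was 2.05 ± 0.48 (limma, adjusted p = 0.00151). For mmu-miR-500-3p the differences were 1.91 ± 0.36 and 2.50 ± 0.36.

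At 24 h, the time that chose the members, the line differences lay between 1.58 for mmu-miR-501-3p (3.00-fold) and 3.50 for mmu-miR-501-5p (11.3-fold), with a median of 3.08 against -0.07 over all miRNAs. The values of mmu-miR-501-5p were 2.16, 2.49 and 2.37 in the control line and 5.97, 6.09 and 5.47 in the Ikaros line. Those of mmu-miR-501-3p were 9.55, 8.86 and 9.43 in the control line and 11.79, 10.70 and 10.10 in the Ikaros line. The control samples of mmu-miR-501-3p averaged 9.28 at 24 h, the highest of their 6 times, and those of mmu-miR-362-5p 6.69, likewise the highest of their 6 times.

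The course within the Ikaros line was followed from 2 h to 18 h, where culture batches were the same at both times. One library of the starting time bore on it. In the Ikaros sample of 2 h, replicate 4, mmu-miR-532-3p, mmu-miR-362-3p, mmu-miR-501-5p and mmu-miR-500-3p, 4 of the 10 members, had their lowest value of all Ikaros samples of 2 h to 18 h. In mmu-miR-500-3p, for example, it was at 6.35 beside 8.26 and 7.91. Low values were not particular to this sample. In the Ikaros sample of 6 h, replicate 4, mmu-miR-532-5p, mmu-miR-188-3p, mmu-miR-362-5p, mmu-miR-501-3p and mmu-miR-500-5p had their lowest value of the same samples. That of mmu-miR-188-5p was in the 12 h sample of replicate 4. How many of all miRNAs were lowest in these samples was not counted.

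In the Ikaros line 2 members rose between 2 h and 18 h, mmu-miR-532-5p and mmu-miR-362-3p, 2 of 10 members, against 4.26% of all miRNAs called higher. Same-numbered samples of mmu-miR-532-5p differed by 0.81, 0.77 and 0.97, and the change was 0.85 ± 0.23 (SE, limma, adjusted p = 0.0126, 1.80-fold). Those of mmu-miR-362-3p differed by 0.73, 0.92 and 1.56, and the change was 1.07 ± 0.30 (limma, adjusted p = 0.0174). Both were higher at 18 h in 3 of 3 same-numbered samples, as were mmu-miR-501-5p, mmu-miR-500-5p and mmu-miR-500-3p, which missed the threshold. In the control line 2 of 3 were higher for mmu-miR-362-3p, mmu-miR-501-5p, mmu-miR-500-5p and mmu-miR-500-3p, and 1 of 3 for mmu-miR-532-5p. How many of all miRNAs were higher in 3 of 3 was not counted. The calls did not hold with fewer samples, as 0 of 10 members passed without replicate 1, 0 without replicate 2, 1 without replicate 4 (mmu-miR-532-5p), 0 without the Ikaros 2 h sample of replicate 4 and 1 with 2 h to 18 h samples alone (mmu-miR-532-5p). The changes themselves were 0.87 and 0.89 for mmu-miR-532-5p and 1.24 and 1.14 for mmu-miR-362-3p without replicates 1 and 2, no smaller than with all samples. Without the Ikaros 2 h sample of replicate 4 the change was 0.60 (limma, adjusted p = 0.111) for mmu-miR-532-5p and 0.62 (adjusted p = 0.174) for mmu-miR-362-3p.

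The other 8 members missed the threshold. Their changes in the Ikaros line between 2 h and 18 h were 0.92 ± 0.34 for mmu-miR-501-5p, 0.86 ± 0.36 for mmu-miR-500-3p, 0.66 ± 0.28 for mmu-miR-532-3p, 0.62 ± 0.48 for mmu-miR-500-5p, 0.39 ± 0.33 for mmu-miR-188-3p, 0.28 ± 0.40 for mmu-miR-362-5p, 0.11 ± 0.34 for mmu-miR-188-5p and -0.06 ± 0.33 for mmu-miR-501-3p (SE). That of mmu-miR-501-3p turned to 0.06 with sample medians subtracted and to 0.0035 with quantile normalization. Among these, mmu-miR-501-5p came closest (limma, adjusted p = 0.0819), and it passed with sample medians subtracted (1.04, adjusted p = 0.0322) and with quantile normalization (1.12, adjusted p = 0.0243). The interval of the change of mmu-miR-501-3p ran from -0.73 to 0.62 (95%), so a moderate rise or fall of this arm could not be seen with 3 samples. The median change of the members was 0.64 against -0.09 over all miRNAs. Calls over all miRNAs were 20 higher and 34 lower, but 27 and 24 with sample medians subtracted, which raised the median of all changes by 0.12, and 23 and 23 with quantile normalization.

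Earlier steps of the course were smaller. Between 2 h and 6 h of the Ikaros course 0 of 10 members and 0.0% of all miRNAs were called higher (limma), with 20 of the 469 miRNAs and 0 members at an unadjusted p under 0.05, and member changes lay between -0.28 and 0.23. From 2 h to 12 h, 0 of 10 members and 0.64% of all miRNAs were called higher, with 60 miRNAs and 0 members at an unadjusted p under 0.05, and member changes lay between -0.41 and 0.48. Over all miRNAs the calls of 2 h to 12 h were 3 higher and 8 lower, or 4 and 1 with sample medians subtracted and 5 and 7 with quantile normalization.

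In the control line, which received the drug but did not carry the Ikaros fusion, none of the members was called between 2 h and 18 h. Their changes lay between -0.44 for mmu-miR-188-5p and 0.32 for mmu-miR-362-3p, with a median of 0.07. In that comparison 0.0% of all miRNAs were called in either direction (limma), with 32 miRNAs and 0 members at an unadjusted p under 0.05. Same-numbered control samples of mmu-miR-532-5p differed by 0.20, -0.65 and -0.11.

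Whether the change differed between the lines was tested directly as the difference of the 2 h to 18 h changes. For all 10 members the value was above 0, from 0.07 for mmu-miR-362-5p to 1.04 for mmu-miR-532-5p. Their median was 0.57 against -0.10 over all miRNAs. However, 0 of 10 passed the threshold (limma), against 1.71% of all miRNAs called higher. At an unadjusted p under 0.05 were 1 member and 98 of the 469 miRNAs. The difference of mmu-miR-532-5p was 1.04 ± 0.33 (adjusted p = 0.0612). It was past the threshold in a fit that paired samples by culture batch, the replicate block (adjusted p = 0.0443) and with sample medians subtracted (1.19, adjusted p = 0.0339), and fell to 0.79 without the Ikaros 2 h sample of replicate 4. The interval for mmu-miR-362-3p ran from -0.12 to 1.63 (95%). Over all miRNAs 8 calls were higher and 11 lower, or 15 and 8 with sample medians subtracted and 12 and 11 with quantile normalization.

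As a description over all 6 times, the mean of the Ikaros line was lowest at 0 h for all 10 members and highest at 24 h for 9 of them. The exception was mmu-miR-501-3p, with means of 10.87 at 2 h and 10.87 at 24 h. Because 0 h and 24 h entered the choice of the members, this order and the spans are partly set by it. How many of all miRNAs had the same order was not counted. The means of the Ikaros line spanned between 0.64 for mmu-miR-501-3p and 1.95 for mmu-miR-500-5p from lowest to highest, and those of the control line between 0.22 for mmu-miR-532-3p and 1.18 for mmu-miR-362-5p. The step from 0 h to later times also changed culture batch, and the time and the culture batch cannot be told apart there.

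The ratio of the arms, given as the log2 value of the 5p arm minus that of the 3p arm in each sample, was a property of each hairpin. For Mir532 the 5p arm was higher in 36 of 36 samples, by a median of 3.30 (9.85-fold) in the control line and 3.64 (12.5-fold) in the Ikaros line. For Mir501 the 3p arm was higher in every sample, by medians of 65.3-fold and 56.4-fold, and for Mir500 likewise in every sample, by medians of 10-fold and 13.2-fold. The arms of Mir188 and Mir362 were near each other. The 5p arm was the higher in 6 of 18 control and 4 of 18 Ikaros samples for Mir188, and in 15 of 18 and 14 of 18 for Mir362.

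Averaged over 2 h to 18 h, the arm difference did not pass the test between the lines for any of the 5 hairpins (limma, 0 of 5, and 0 at an unadjusted p under 0.05), against 8.53% of the 129 hairpins with both arms in the table called in either direction, 31 at an unadjusted p under 0.05. Ikaros minus control was -0.38 ± 0.24 for Mir188, 0.34 ± 0.27 for Mir362, -0.23 ± 0.21 for Mir501, -0.23 ± 0.34 for Mir500 and 0.19 ± 0.14 for Mir532 (SE). The 95% intervals of the 5 hairpins lay within -0.92 and 0.88.

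During 2 h to 18 h of the Ikaros course 0 of 5 hairpins changed their arm difference past the threshold (limma), against 1.55% of all 129. At an unadjusted p under 0.05 were 1 of the 5 and 13 of the 129. The largest change was that of Mir501, whose arm difference went from -6.46, -5.81 and -7.05 at 2 h to -5.81, -4.89 and -5.70 at 18 h. All 3 same-numbered Ikaros samples moved toward the 5p arm, by 0.98 ± 0.43 (limma, adjusted p = 0.358). In the control line the same-numbered changes were -1.09, 1.19 and 0.63, with 2 of 3 toward the 5p arm. At 24 h, a time that chose the members, the arm difference of Mir501 was -7.39, -6.37 and -7.07 in the control line and -5.83, -4.61 and -4.63 in the Ikaros line, without overlap. That gap is the difference between the members with the largest and the smallest line difference at 24 h, and was not tested.

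**Figure D4:**
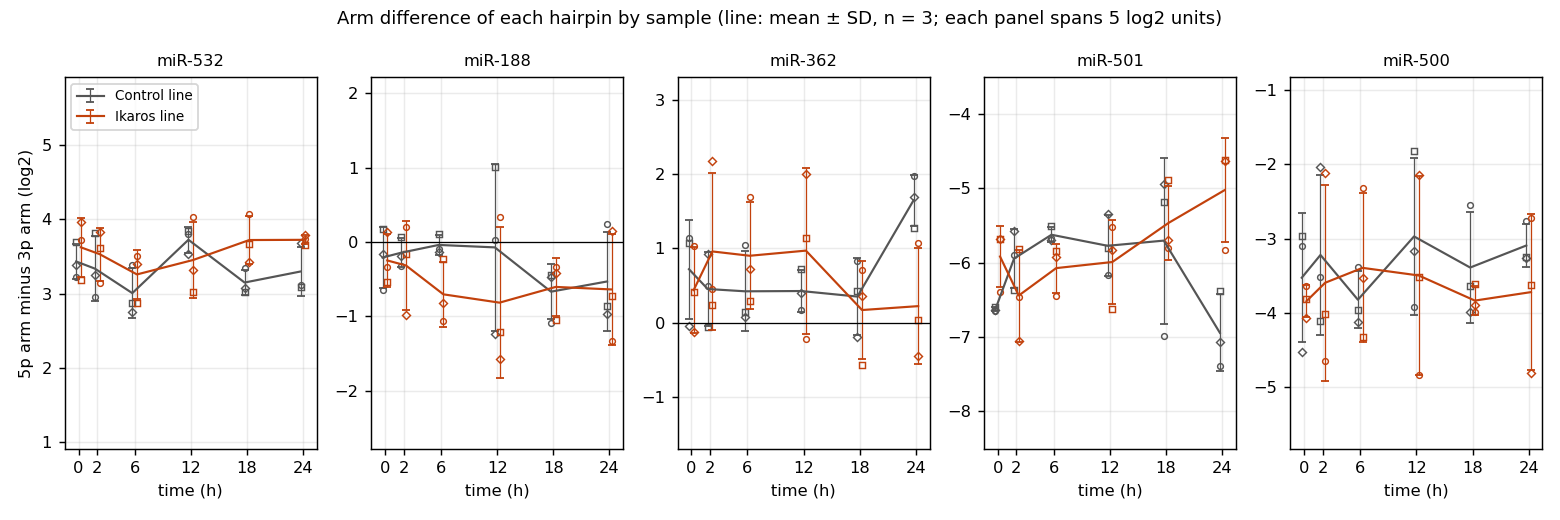
Log2 value of the 5p arm minus that of the 3p arm (y axis, each panel spanning 5 log2 units) against time in h (x axis), with single samples as symbols and means with SD (n = 3) as lines, control in grey and Ikaros in orange. Mir532 lies above 0 and Mir501 and Mir500 below 0 in every sample.

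The 5 hairpins agreed closely in their group means. Over the 12 means of line and time, each member had a Pearson r of between 0.957 (mmu-miR-501-3p) and 0.998 (mmu-miR-532-3p) with the mean of the other 9, a description in which the line difference used to choose them takes part. The 5 miRNAs outside the cluster with the most similar means were mmu-miR-872-5p (r = 0.969), mmu-miR-152-5p (0.964), mmu-miR-542-5p (0.962), mmu-miR-28a-3p (0.962) and mmu-miR-872-3p (0.949), each over 12 group means. The mean of mmu-miR-872-5p went from 9.73 in the control line and 10.03 in the Ikaros line at 0 h to 9.52 and 10.33 at 24 h, and that of mmu-miR-28a-3p from 4.44 and 5.77 to 4.44 and 6.92.

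Within groups the agreement was of another kind. For each sample the deviation from the mean of its group was taken, and the 10 members were compared over the 36 samples. Of the 45 pairs of members 33 correlated positively and 12 negatively, with r between -0.333 and 0.809. The arms of the same hairpin had r = 0.502 for Mir532, 0.2 for Mir501, -0.005 for Mir188, -0.138 for Mir362 and -0.28 for Mir500. The highest values joined arms of different hairpins, with r = 0.809 for mmu-miR-362-5p and mmu-miR-500-5p, which share a seed, and r = 0.804 for mmu-miR-362-3p and mmu-miR-500-3p, which differ at 5 of 22 bases. The pair with the fewest differing bases, mmu-miR-501-3p and mmu-miR-500-3p, had r = 0.119. The samples share libraries, normalization and batch correction, and no test was made.

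**Figure D5:**
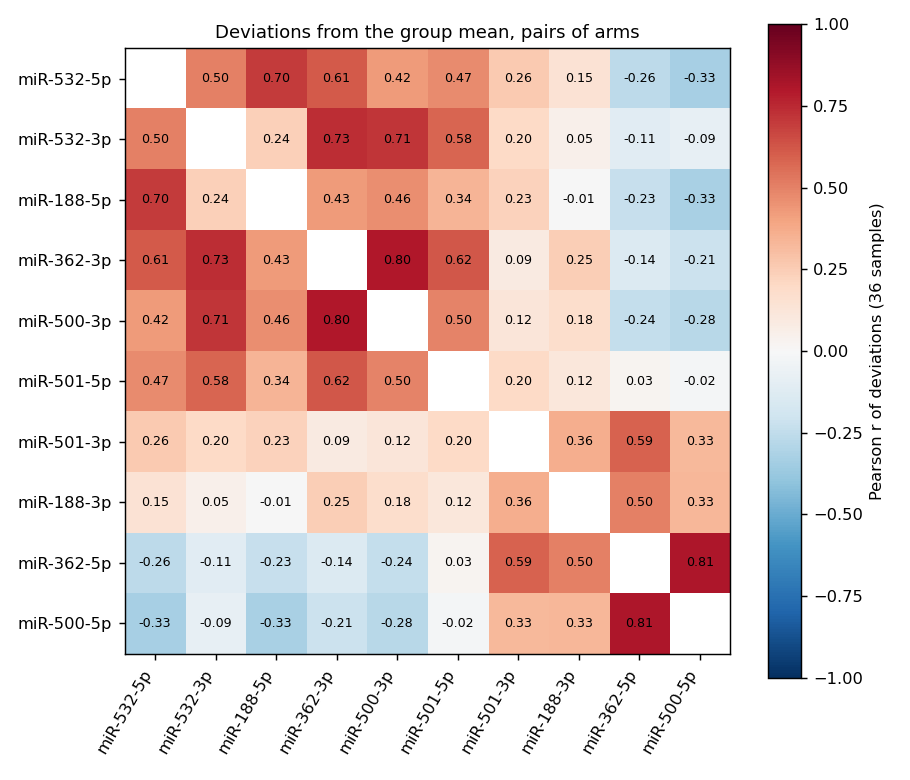
Pearson r of the deviations from the group means for each pair of members over 36 samples, from blue for negative to red for positive. The strongest values are those of mmu-miR-362-5p with mmu-miR-500-5p and of mmu-miR-362-3p with mmu-miR-500-3p, while the 2 arms of Mir362 and of Mir500 have values below 0.

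The Ikaros samples of 24 h show the pattern. In replicates 1, 2 and 4, mmu-miR-362-5p was at 9.81, 8.64 and 7.76, mmu-miR-500-5p at 6.01, 5.45 and 4.06 and mmu-miR-501-3p at 11.79, 10.70 and 10.10. Over the same samples mmu-miR-532-5p was at 13.15, 13.18 and 12.97 and mmu-miR-500-3p at 8.73, 9.07 and 8.87. Replicate 1 was thus the highest and replicate 4 the lowest in the first 3 arms, which spread over 2.05, 1.95 and 1.70 log2 units, whereas mmu-miR-532-5p and mmu-miR-500-3p spread over 0.21 and 0.34.

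These deviations moved with those of miRNAs outside the cluster. The first principal component of the deviations of the other 459 miRNAs held 36.6% of their variance. It correlated with the deviations of mmu-miR-500-5p (r = 0.833) and mmu-miR-362-5p (0.723), hardly with mmu-miR-188-3p (0.168) and mmu-miR-501-3p (0.099), and inversely with the other 6 members, from -0.24 for mmu-miR-501-5p to -0.675 for mmu-miR-500-3p. The GC content was 44.0% and 41.7% in the 2 arms with the highest r, and between 40.9% (mmu-miR-362-3p, r = -0.538) and 63.6% (mmu-miR-532-3p, r = -0.418) in the arms with negative r and a sequence. The part of GC content in this component, and of the component in the line differences, was not tested.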

How the data were processed

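Small RNA-seq of 36 samples was analysed from the table deposited by the authors, which holds normalised log2 values of 469 miRNAs. Per their methods and the labels, the authors used Novoalign against mouse miRBase sequences and multiBamCov of bedtools for counting (the labels name mm10 as the build). NOISeq served to filter on low CPM, cqn to adjust for GC content, TMM to scale the libraries and ComBat to remove the effect of sequencing batch, and technical replicates were averaged. These steps leave neither counts nor depth, and differences between samples sequenced apart depend on the batch correction.

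Groups were line and time, as labelled. Values were compared with limma 3.58.1 in R 4.3.3 (lmFit, eBayes with a mean-variance trend) over all 469 miRNAs, or 129 hairpins for the arm difference, with 1 mean for each of 12 groups and Benjamini-Hochberg adjustment per contrast (threshold 0.05). Fold changes are powers of 2 of the log2 differences. The fit was tested on simulated data. Alternatives were sample medians subtracted, quantile normalization, the lowest 25% left out, no trend, 2 h to 18 h samples only, a replicate block and leaving out replicates. The members and lists were chosen with earlier results of these data known. Besides all 10 members, the text names miRNAs of the same host or seed (there were none) and the 5 with the most similar group means. Same-numbered samples of both lines share a culture batch in the labels, which pairs them; their deviations had r = 0.26 over all pairs and between -0.05 and 0.61 within pairs. P-values measure the spread between cultures of 1 population per line. Summaries and figures used Python 3.11.15, numpy 2.4.6, pandas and matplotlib 3.10.9. Hairpins were located by name in GENCODE vM21.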

Additional observations from a re-analysis of the deposited data

How the results depend on the processing

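All 10 members kept a higher value in the Ikaros line at 2, 6, 12 and 18 h under every alternative, and leaving out a replicate changed the median of the members at 0 h to between 1.35 and 1.63 and at 24 h to between 3.03 and 3.15. With 1 replicate or the Ikaros 2 h sample of replicate 4 left out (the latter chosen after seeing the data), calls over all miRNAs numbered 18 to 47 (2 h), 22 to 74 (6 h), 34 to 105 (12 h) and 69 to 145 (18 h), and calls of members at 2 h between 6 and 10. In the same fits the Ikaros line had between 17 and 45 calls from 2 h to 18 h (members between 0 and 1) and between 0 and 3 from 2 h to 12 h, the control line between 0 and 1, and the difference of the changes between 3 and 11. The arm difference had between 4 and 9 calls between the lines and between 0 and 5 over the Ikaros course.

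Among other settings, the Ikaros change from 2 h to 12 h had 5 calls with sample medians subtracted and 6 with 2 h to 18 h samples only, which also left 1 member called from 2 h to 18 h. The difference of the changes had 1 member called with sample medians subtracted and 1 with the replicate block, which pairs samples by culture batch and changed no other call of a member. The arm difference had 7 calls between the lines without the lowest hairpins, where fewer were tested, and 4 over the Ikaros course with quantile normalization. The causes of the other shifts were not tested. Directions that turned all belonged to values short of the threshold. The change of mmu-miR-501-3p in the Ikaros line was 0.063 with sample medians subtracted and 0.0035 with quantile normalization, and lay between -0.19 and 0.015 with samples left out. With samples left out, that of mmu-miR-188-5p lay between -0.18 and 0.35 (-0.08 without replicate 4) and that of mmu-miR-362-5p between -0.071 and 0.55. The difference of the changes lay between -0.25 and 0.60 for mmu-miR-362-5p (-0.15 without replicate 4) and between -0.014 and 0.16 for mmu-miR-501-3p. The line difference of the arms lay between -0.0022 and 0.52 for Mir362 and between -0.41 and 0.018 for Mir501, and their Ikaros change between -0.18 and 0.49 for Mir532, -0.71 and 0.011 for Mir188 and -0.69 and 0.53 for Mir500.

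With 3 samples per group and no depth, precision rests on the replicates, and SEs of the line differences ran from 0.23 for mmu-miR-532-5p to 0.48 for mmu-miR-500-5p.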
